A study of Saccharomyces cerevisiae with 10 samples.

Results

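The 47 genes described here encode ribosome biogenesis factors of budding yeast, that is, nucleolar proteins that modify, cut, fold and package ribosomal RNA before the finished subunits leave for the cytoplasm. They were chosen by gene identifier, out of the 6607 genes of the count table, as a named list with no threshold on a measured value. By role they were 3 core proteins of the box C/D small nucleolar RNPs (snoRNPs), 4 core proteins of the box H/ACA snoRNPs, the nucleolin-like protein NSR1, 5 DEAD-box RNA helicases, 17 assembly factors of the small subunit and 17 of the large subunit. All 47 were among the 5856 genes with enough counts to be tested, with 41 to 6164 counts per gene and culture.

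RNA-seq was done on 10 cultures of Saccharomyces cerevisiae in 3 groups: 3 cultures of strain 218-L-14-D1690, in which the nonsense allele sup35-218 had replaced the wild-type gene by plasmid shuffling (sup35-218 stage 3), 4 cultures of strain L-14-D1690, which went through the same exchange with a wild-type plasmid (SUP35 stage 3), and 3 cultures of the starting strain U-14-D1690 with wild-type SUP35 (SUP35 stage 1). SUP35 encodes the translation termination factor eRF3. Every strain was labelled MATa and carried the nonsense alleles ade1-14(UGA) and trp1-289(UAG), the alleles his3-d200, ura3-52 and leu2-3,112 and a lys2 mutation, and its chromosomal SUP35 was replaced by HIS3MX, so that the plasmid was the only source of eRF3. The plasmid of the sup35-218 group was pRSU1-218. The labels gave pRSU2 for both wild-type groups, whereas the study's methods gave the LEU2 plasmid pRSU1 to the stage 3 strain. Each group was 1 strain, and the labels called its cultures replicates without saying how they were separated, so p-values measure only the spread between these cultures. The labels gave SC medium for all cultures and the methods a selective one for each plasmid marker, so that between stage 3 and stage 1 the marker, the medium and the shuffling differed together and cannot be told apart.

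The total count was 3044096 to 4861009 per culture. Replicates of a group differed by 6.72 to 23.7 times the chi-square expected from counting error per degree of freedom, so none was a copy of another. SUP35 stood at 1839 to 2211 CPM (counts scaled to a common library size) in sup35-218 cultures, 515 to 805 CPM in SUP35 stage 3 cultures and 405 to 488 CPM in SUP35 stage 1 cultures. URA3, the marker of pRSU2, stood at 58.7 to 80.7, 71.3 to 94.6 and 828 to 1107 CPM in the same 3 groups. The mating type markers went against the MATa label. The 6 MATa markers (MFA1, MFA2, STE2, STE6, BAR1 and AGA2) summed to 98.0 to 115 CPM in sup35-218, 88.8 to 225 CPM in SUP35 stage 3 and 239 to 596 CPM in SUP35 stage 1 cultures, whereas the 4 MATalpha markers (MF(ALPHA)1, MF(ALPHA)2, STE3 and SAG1), genes that MATa cells are not known to express, summed to 746 to 1054, 1394 to 1671 and 1444 to 1826 CPM. None of the 10 markers was at 0 in any culture. The median log2 fold change (log2FC) of all genes on a chromosome lay between -0.07 and 0.11 over the 16 chromosomes and 3 comparisons.

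Ribosome synthesis begins in the nucleolus, where RNA polymerase I makes the long precursor of most ribosomal RNAs. Box C/D snoRNPs methylate that precursor and box H/ACA snoRNPs change selected uridines to pseudouridine, the small subunit processome cuts out and folds the RNA of the small subunit, and a chain of GTPases, helicases and scaffold proteins matures the large subunit. In budding yeast the genes of these factors are known to be switched on and off together with growth, through a pair of short promoter elements called PAC and RRPE.

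Both elements were searched in the 300 bases from 250 before to 50 after the first base of the start codon, in the R64 genome, as the PAC core GATGAG and the RRPE core AAAATTTT. Both strands were read, and the RRPE core reads the same on each. All 47 windows held the PAC core, against 19.9% of the windows of 5904 protein-coding genes. The RRPE core was in 40 of the 47, against 9.18%, and the same 40 held both, against 4.45% of all. MAK5, SSF1, NOP10, IMP3, SOF1, NOP4 and RRP9 held PAC without RRPE. The PAC core was found 1 time in 27 genes, 2 times in 15 and 3 times in 5, and 41 of the 47 had one that began between 160 and 70 bases before the start codon, against 8.57% of all genes. In the 40 genes with both, the RRPE core nearest to a PAC core lay upstream of it in 31, and the median gap was 8 bases (range 1 to 52). Among other lists, PAC was in 52 of 58 other small subunit factors, 50 of 61 other large subunit factors and 12 of 16 RNA polymerase I genes, but in 15 of 137 ribosomal protein genes and 3 of 30 stress-induced genes. The 4 windows below belong to factors that led the comparisons described further on, and show the typical layout, with the matches in capitals (in BRX1 the PAC core is on the opposite strand and reads CTCATC).
MRT4 (XI, 425992 to 426291, plus strand): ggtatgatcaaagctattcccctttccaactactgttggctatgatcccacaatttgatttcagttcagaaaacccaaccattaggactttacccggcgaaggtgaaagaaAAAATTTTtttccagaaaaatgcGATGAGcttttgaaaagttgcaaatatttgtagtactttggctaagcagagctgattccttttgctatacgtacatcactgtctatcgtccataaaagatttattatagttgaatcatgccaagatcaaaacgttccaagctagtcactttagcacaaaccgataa
ENP1 (II, 714406 to 714705, minus strand): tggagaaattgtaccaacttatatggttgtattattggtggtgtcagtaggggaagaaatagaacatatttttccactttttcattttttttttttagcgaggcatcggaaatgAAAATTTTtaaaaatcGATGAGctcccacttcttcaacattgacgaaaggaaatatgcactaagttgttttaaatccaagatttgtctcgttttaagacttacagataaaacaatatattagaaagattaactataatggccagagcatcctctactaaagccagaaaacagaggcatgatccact
BRX1 (XV, 186674 to 186973, minus strand): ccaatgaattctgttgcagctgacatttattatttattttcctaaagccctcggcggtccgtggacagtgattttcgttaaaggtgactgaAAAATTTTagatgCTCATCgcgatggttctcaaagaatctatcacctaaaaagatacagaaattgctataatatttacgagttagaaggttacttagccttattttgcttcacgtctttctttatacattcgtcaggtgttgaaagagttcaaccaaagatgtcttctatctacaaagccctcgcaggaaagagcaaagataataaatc
NUG1 (V, 162473 to 162772, plus strand): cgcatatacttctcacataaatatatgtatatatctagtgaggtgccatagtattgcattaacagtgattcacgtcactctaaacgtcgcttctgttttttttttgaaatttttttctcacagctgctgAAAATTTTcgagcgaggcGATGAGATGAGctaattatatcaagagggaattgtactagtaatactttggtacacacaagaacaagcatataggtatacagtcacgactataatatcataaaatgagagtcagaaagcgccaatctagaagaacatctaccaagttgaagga

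**Figure D1:**
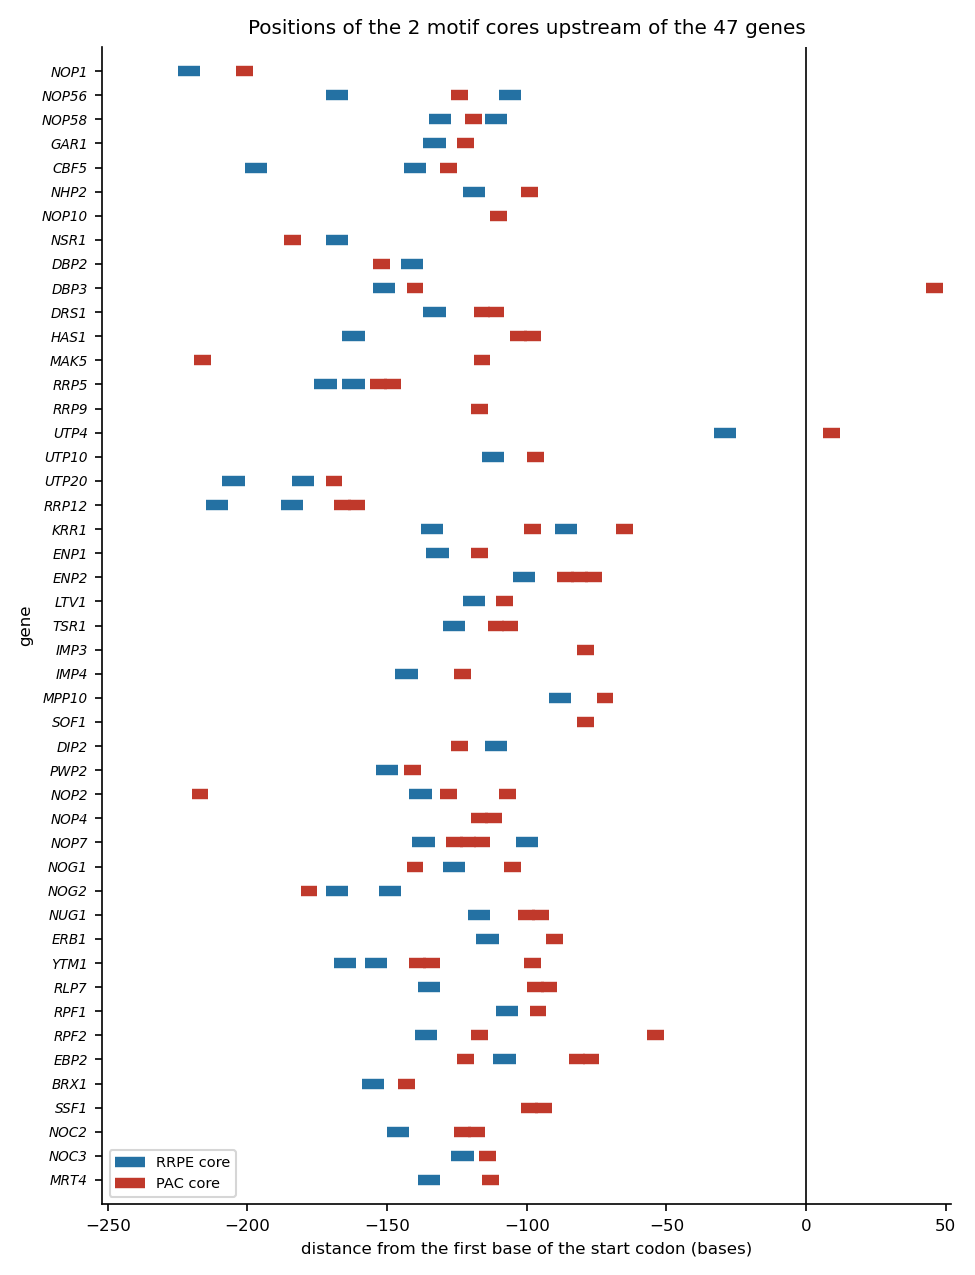
Positions of the PAC core (red) and the RRPE core (blue) for each of the 47 genes, in bases from the first base of the start codon; each bar spans the bases of 1 match. In 31 of the 40 genes with both, the RRPE core nearest to a PAC core lies to its left, and the matches gather about 100 bases before the start codon.

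Levels differed widely between the factors. Per kilobase of sequence that could be counted, and over all 10 cultures, the highest means were those of CBF5 (854 CPM per kb), the pseudouridine synthase of box H/ACA snoRNPs, NOP10 (629 CPM per kb), the smallest of its partners, and EBP2 (496 CPM per kb), a large subunit factor. The lowest were those of UTP20 (20.6 CPM per kb) and UTP10 (25.8 CPM per kb), 2 very large small subunit processome proteins. The median of the 47 was 78.8 CPM per kb, against 70.1 CPM per kb over 5718 genes. The 4 partners of the H/ACA complex were not level per kilobase, since NHP2 and GAR1 stood at 285 and 210.5 CPM per kb. NOP10, NHP2 and GAR1 span only 177, 471 and 618 bases. Without division by length NOP10, NHP2 and GAR1 were closer to each other, with means of 117, 150 and 157 CPM in SUP35 stage 3 cultures. CBF5 stayed far above them, with a mean of 1454 CPM in the same cultures. How far the short span of NOP10 affects its value per kb was not tested. The countable length leaves out overlaps with other genes, because reads there were counted for neither gene whatever the strand: all 104 genes that lie within a gene on the opposite strand, and all 14 within one on the same strand, had 0 counts in every culture. This removed 46.9% of NSR1, 27.8% of RRP9, 26.0% of NOP4, 21.5% of NOP56, 16.5% of NOP58 and 11.2% of HAS1. Genes were counted from end to end with their introns, of which DBP2 has 1 of 1002 bases (XIV, 414912 to 415913) and NOG2 1 of 532 bases (XIV, 721771 to 722302), the host of the H/ACA snoRNA gene SNR191.

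The 47 factors moved together between replicate cultures of the same group. In SUP35 stage 1, all 47 had their lowest level in replicate 1 and all 47 their highest in replicate 3, where 34.3% and 35.1% of all tested genes had theirs. In SUP35 stage 3, 36 of the 47 were lowest in replicate 1 and 36 highest in replicate 4, against 30.7% and 30.2% of all genes, and in sup35-218, 39 were lowest in replicate 3 and 35 highest in replicate 2, against 37.9% and 29.8%. EBP2, picked after its values were seen, was the most variable of them, with 249, 481 and 906 CPM in the 3 stage 1 cultures. The pooled standard deviation of log2 CPM within groups had a median of 0.30 over the 47 genes (range 0.14 to 0.58), against 0.16 over 5192 genes within the same range of mean CPM. The standard error of the log2FC followed, with medians of 0.18, 0.19 and 0.18 for the factors in the 3 comparisons given below, against 0.13, 0.14 and 0.13 over all genes.

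**Figure D2:**
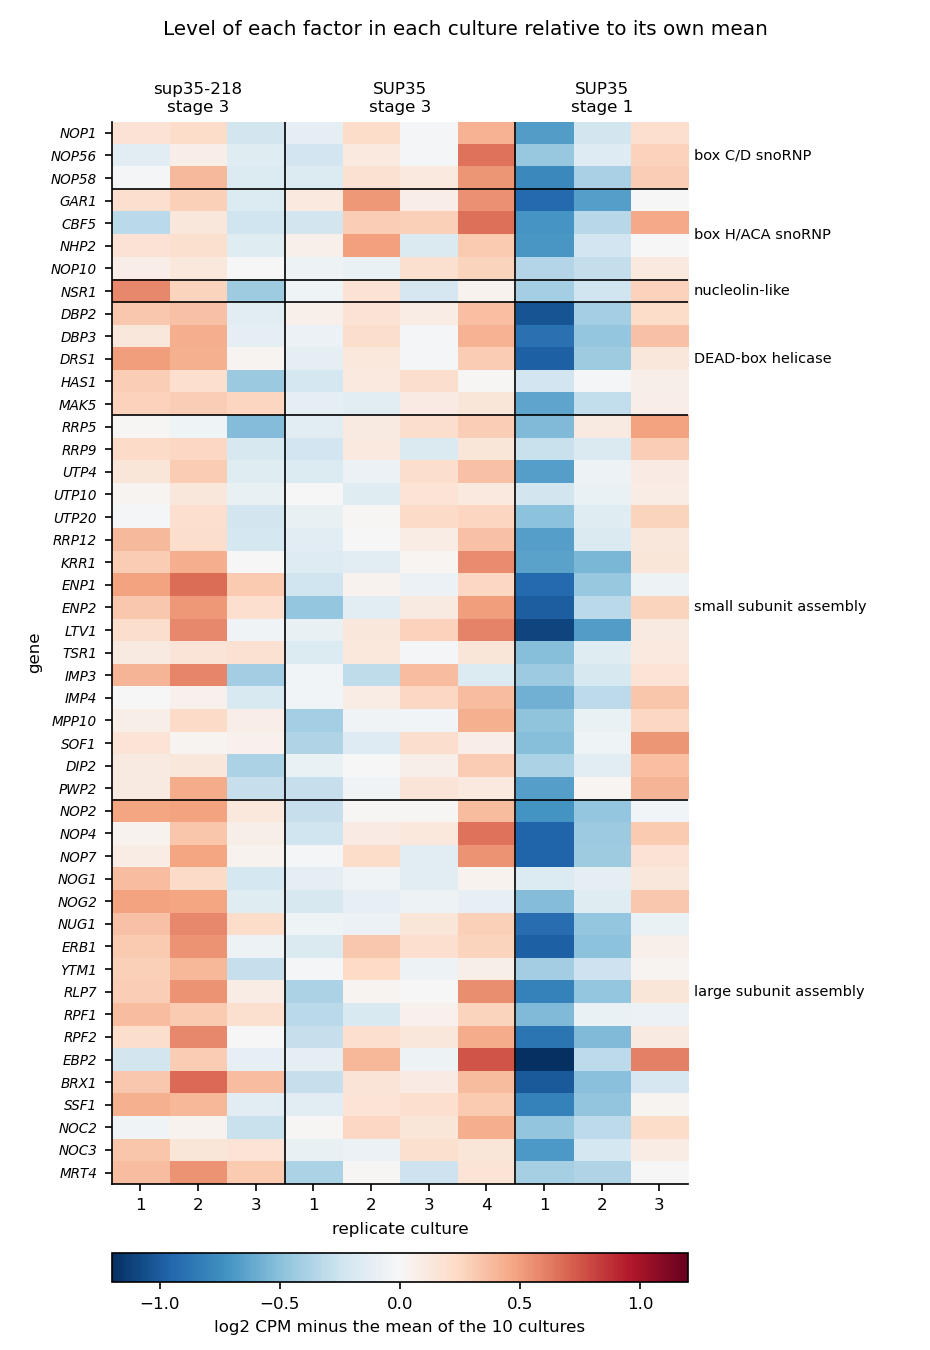
Level of each of the 47 factors (rows, by role) in each of the 10 cultures (columns), as log2 CPM minus the gene's mean over the 10 cultures. The column of SUP35 stage 1 replicate 1 is below the mean in every gene, and replicate 4 of SUP35 stage 3 and replicate 2 of sup35-218 hold most of the highest values of their groups.

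Added up, the factors took 0.835%, 0.946% and 0.712% of all counts in sup35-218 replicates 1 to 3, 0.688%, 0.828%, 0.832% and 1.05% in SUP35 stage 3 replicates 1 to 4, and 0.475%, 0.626% and 0.937% in SUP35 stage 1 replicates 1 to 3. The means were 0.831%, 0.849% and 0.679%, and the 3 groups overlapped. The sum of the ribosomal protein genes was also lowest in the cultures where the factors were lowest: 3.86% in sup35-218 replicate 3 against 4.46% and 4.49% in the others of that group, 3.74% in SUP35 stage 3 replicate 1 against 4.11% to 4.56%, and 3.01% in SUP35 stage 1 replicate 1 against 3.27% and 4.39%. The 119 other assembly factors did the same, from 0.869% in SUP35 stage 1 replicate 1 up to 1.35% in sup35-218 replicate 2. Of 30 stress-induced genes, 28 were highest in sup35-218 replicate 3 and 20 in SUP35 stage 3 replicate 1. In SUP35 stage 1, 3 were highest in replicate 1 and 27 in replicate 2, and 25 were lowest in replicate 3. The sum of the stress-induced genes did not mirror that of the factors everywhere. It was 3.71%, 3.42%, 3.79% and 2.95% in SUP35 stage 3 replicates 1 to 4. In SUP35 stage 1 replicates 1 to 3 it was 3.43%, 3.97% and 3.13%. The MATa markers summed to 596, 434 and 239 CPM in those same SUP35 stage 1 cultures. The part of growth state, stress or mating type genes in the factors' levels was not tested, and fewer cells that make a transcript cannot be told apart from less of it per cell.

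**Figure D3:**
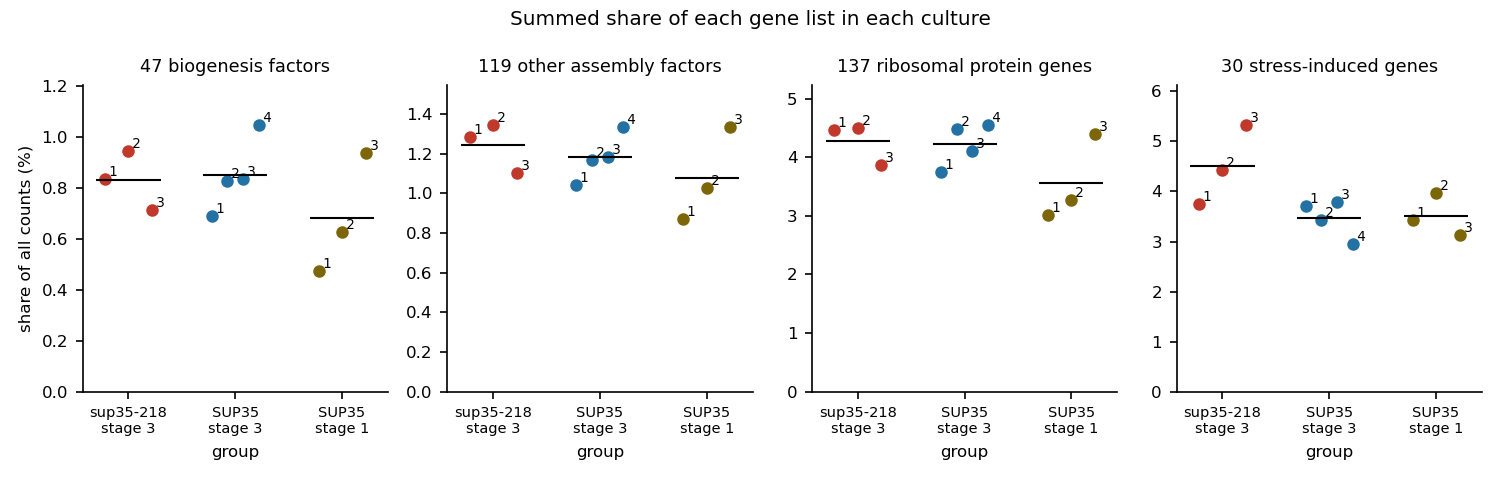
Share of all counts (%) that lay on 4 gene lists in each culture, numbered by replicate, with the group mean as a line. The 47 factors run from 0.475% to 0.937% within SUP35 stage 1 alone, and the ribosomal protein genes are lowest in the same culture of each group.

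The comparison of sup35-218 with SUP35 at stage 3 sets the 2 alleles side by side after the shuffling, when both strains, by the study's methods, carry a LEU2 plasmid. LEU2 stood at 6473 to 7305 CPM in sup35-218 and at 1768 to 2748 CPM in SUP35 stage 3 cultures (log2FC 1.53 ± 0.17). The allele and the level of LEU2 thus differed together and cannot be told apart. SUP35 stage 1 cultures, whose plasmid by the methods carries URA3, had LEU2 at 1454 to 1849 CPM. How much of the LEU2 level came from the plasmid was not tested. A gene was called changed when edgeR's quasi-likelihood test gave an adjusted p under 0.05 (Benjamini-Hochberg over all 5856 genes) and its log2FC was above 0.5 in size. Of the 47 factors, 1 was called higher (2.13%) and 0 lower, while 10.7% of all genes were called higher and 12.6% lower. At an unadjusted p under 0.05, 4 were higher and 0 lower, against 22.6% and 25.2% of all genes. DESeq2 called 1 higher and 0 lower, against 10.3% and 12.3% of all genes. The median log2FC of the factors was 0.11, against -0.01 over all genes, and 32 of 47 were positive. With no log2FC cutoff 2 were higher (18.5% of all genes), and with a cutoff of 1 or with glmTreat, which tests against a log2FC of 0.5, there were 0 (higher calls in 2.34% and 3.23% of all genes). The lowest of the mutant cultures lay above the highest SUP35 stage 3 culture in 3 of the 47 (MAK5, ENP1 and MRT4) and in 20.9% of all genes.

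MRT4 (YKL009W), a large subunit factor related to a protein of the ribosomal stalk, was the factor called higher. It stood at 127, 143 and 122 CPM in sup35-218 cultures, against 75.3, 98.9, 82.7 and 110.0 CPM in SUP35 stage 3 cultures. Every mutant culture was above every wild-type one, by a log2FC of 0.51 ± 0.14 (SE, adjusted p = 0.0097). ENP1 (YBR247C), a factor of the small subunit precursor, had 116, 133 and 103 CPM in sup35-218 cultures, against 70.3, 85.6, 79.5 and 99.0 CPM in SUP35 stage 3 cultures. These did not overlap either, but the log2FC of 0.49 ± 0.17 was under the cutoff (adjusted p = 0.033). Both genes were close to the cutoff, and single cultures moved them across it: MRT4 was no longer called without SUP35 stage 3 replicate 1 (log2FC 0.46), replicate 3 (0.46) or sup35-218 replicate 2 (0.48), and ENP1 was called without SUP35 stage 3 replicate 2 or 4 or sup35-218 replicate 3. The number of factors called was thus 0 to 3, with 0 without SUP35 stage 3 replicate 1, SUP35 stage 3 replicate 3 or sup35-218 replicate 2, 2 without SUP35 stage 3 replicate 2 or 4, and 3 without sup35-218 replicate 3. In each of these fits the share of the factors called higher was below that of all genes, which was 10.1% to 12.8%.

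The snoRNP proteins leaned to lower values in the mutant at stage 3, and none passed the test (0 of 7 at an unadjusted p under 0.05 and 0 by DESeq2). All 7 had a negative log2FC, from -0.41 for CBF5 to -0.02 for NOP10 (YHR072W-A). Because the factors moved together between replicate cultures, these 7 signs are not 7 separate observations. CBF5 (YLR175W) had 952, 1309.8 and 1012 CPM in sup35-218 cultures, against 1024, 1458, 1452 and 1883 CPM in SUP35 stage 3 cultures. The groups overlapped (log2FC -0.41 ± 0.25, adjusted p = 0.21). NOP10 had 117, 121 and 109.9 CPM in sup35-218 cultures, against 106, 104, 126 and 133 CPM in SUP35 stage 3 cultures. NOP1 (YDL014W), the fibrillarin of yeast and the methyltransferase of box C/D snoRNPs, had 297, 306 and 227 CPM against 243, 307, 261 and 350.4 CPM in the same groups. NOP56 (YLR197W), its core partner, had 286, 332 and 284 CPM against 268, 339.8, 312 and 492 CPM. In both, SUP35 stage 3 replicate 4 was the highest culture, and the log2FC was within 0.23 of 0.

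The 5 helicases had log2FC between 0.01 and 0.26 at stage 3, and none was called. DBP2 (YNL112W), which also acts in mRNA metabolism, had 207, 211 and 152 CPM in sup35-218 cultures, against 173, 186, 176 and 212 CPM in SUP35 stage 3 cultures. MAK5 (YBR142W), a helicase of the large subunit pathway, was higher without overlap, with 95.8, 97.6 and 94.6 CPM in sup35-218 cultures against 73.8, 72.7, 85.1 and 88.0 CPM in SUP35 stage 3 cultures, yet its log2FC of 0.26 ± 0.14 did not pass (adjusted p = 0.15). HAS1 (YMR290C), a helicase of both subunit pathways, had 106, 99.6 and 63.7 CPM against 74.8, 94.1, 100.1 and 87.4 CPM in the same groups, a log2FC of 0.01 ± 0.16. NSR1 (YGR159C), which binds RNA in the nucleolus, was spread more widely within the mutant, at 230.1, 186 and 115 CPM, than in SUP35 stage 3, at 149, 175, 135 and 159 CPM.

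Among the assembly factors the small subunit list had a median log2FC of 0.11 and the large subunit list 0.17 at stage 3. The lowest members were RRP5 (YMR229C), a scaffold needed for both subunits, and NOC2 (YOR206W), part of a complex that accompanies the large subunit precursor. RRP5 had 194, 184 and 133 CPM in sup35-218 cultures, against 175, 206, 221 and 235 CPM in SUP35 stage 3 cultures (log2FC -0.30 ± 0.20, adjusted p = 0.25). NOC2 had 168, 179 and 144 CPM against 175, 206, 191 and 234 CPM in the same groups (log2FC -0.30 ± 0.15, adjusted p = 0.14). Neither pair of groups was separate. In this comparison 10.7% of all genes were called higher and 12.6% lower. In the rest of the pathway, 5 of 58 other small subunit factors rose and 1 fell (median log2FC 0.13), 4 of 61 other large subunit factors rose and 1 fell (median 0.12), 0 of 16 RNA polymerase I genes changed in either direction (median -0.14), and 1 of 137 ribosomal protein genes rose and 0 fell (median 0.02). Those that rose included SNU13 (log2FC 0.71), a core protein of box C/D snoRNPs beside NOP1 and NOP56. In the large subunit list they were NAF1 (0.62), which helps to assemble H/ACA snoRNPs, DBP6 (0.53), RSA1 (0.61) and NOP3 (0.73). NOP3 is gene YDR432W, and its part in the large subunit pathway was not checked. PXR1 fell by 1.09 on the log2 scale. Among the RNA polymerase I genes, 1 was higher and 2 were lower at an unadjusted p under 0.05, and DESeq2 called 0. Of 30 stress-induced genes 8 rose and 4 fell, of 6 MATa markers 0 rose and 1 fell, and of 4 MATalpha markers 0 rose and 2 fell, and their part in the factors' values was not tested.

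**Figure D4:**
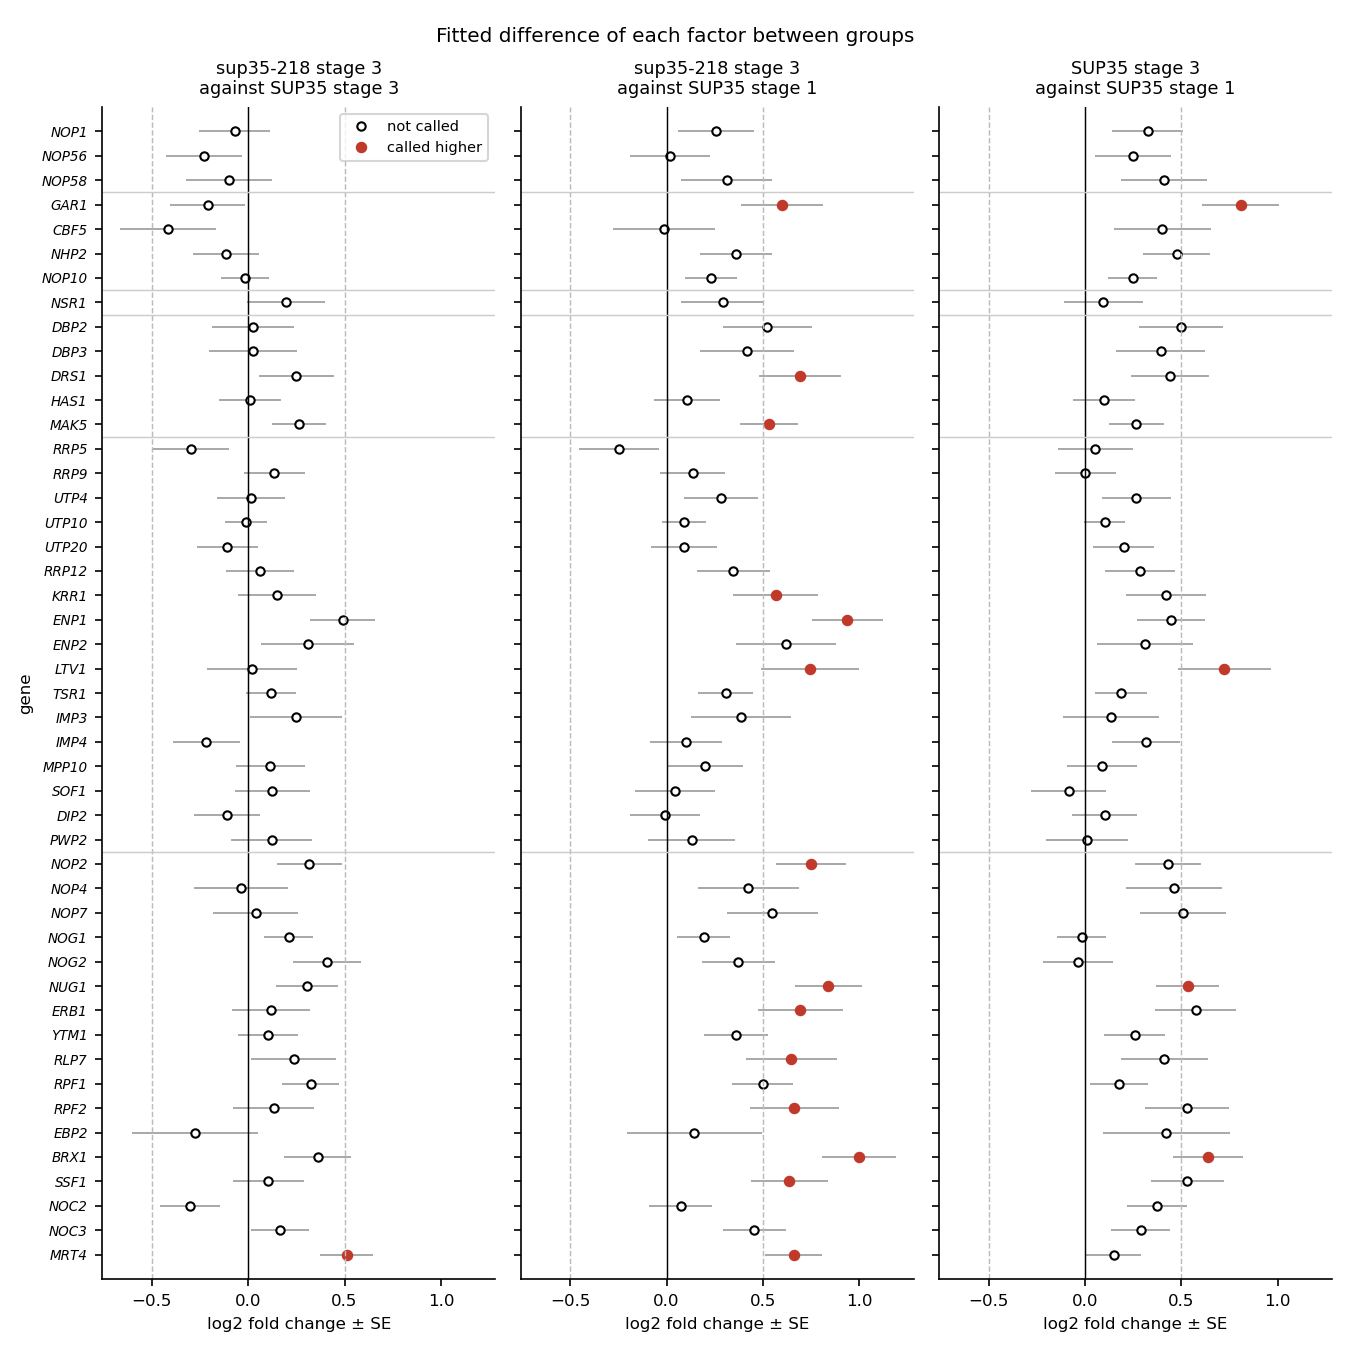
Fitted log2 fold change (± SE) of each of the 47 factors in the 3 comparisons, ordered by role, with dashed lines at the cutoff of 0.5 and filled points for genes called higher. There are 1, 14 and 4 filled points from left to right, and all lie above 0.

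Against SUP35 at stage 1, where allele, plasmid marker, medium and shuffling differ at once, the mutant had 14 of the 47 factors higher (29.8%) and 0 lower, while 14.7% of all genes were called higher and 16.5% lower. At an unadjusted p under 0.05, 21 were higher and 0 lower, against 26.9% and 26.2% of all genes. DESeq2 called 14 higher and 0 lower, against 14.1% and 16.0% of all genes. The median log2FC was 0.36, against 0.04 over all genes, and 44 of 47 were positive. The large subunit list held 8 of its 17 factors among those called (median log2FC 0.55), the small subunit list 3 of 17 (0.20), the helicases 2 of 5 and the H/ACA proteins 1 of 4. With no cutoff 16 were called higher (22.9% of all genes), with a cutoff of 1 there were 0 (3.01%), and with glmTreat 2 (4.49%). The groups were separate and higher in the mutant in 8 factors and in 28.4% of all genes.

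The 5 largest of these differences were in BRX1, ENP1, NUG1, NOP2 and LTV1. BRX1 (YOL077C), a scaffold of the early large subunit precursor, had 130.1, 167 and 135 CPM in sup35-218 cultures, against 51.7, 73.7 and 90.7 CPM in SUP35 stage 1 cultures. The lowest mutant culture was well above the highest stage 1 culture (log2FC 1.00 ± 0.19, adjusted p = 0.00089). ENP1 was the next, at the values above for the mutant against 43.6, 60.5 and 80.0 CPM in SUP35 stage 1 cultures (log2FC 0.94 ± 0.19, adjusted p = 0.0011). NUG1 (YER006W), a nuclear GTPase needed for export of the large subunit, had 206, 240.2 and 188 CPM in sup35-218 cultures, against 85.9, 117 and 153 CPM in SUP35 stage 1 cultures (log2FC 0.84 ± 0.17, adjusted p = 0.0015). These groups did not overlap. NOP2 (YNL061W), an RNA methyltransferase of the large subunit pathway, had 196, 198 and 154 CPM in sup35-218 cultures, against 85.9, 103 and 138 CPM in SUP35 stage 1 cultures (log2FC 0.75 ± 0.18, adjusted p = 0.0044). LTV1 (YKL143W), a late small subunit factor, had 136, 176 and 115 CPM in sup35-218 cultures, against 55.0, 74.2 and 127 CPM in SUP35 stage 1 cultures, and here stage 1 replicate 3 was above sup35-218 replicate 3 (log2FC 0.74 ± 0.25, adjusted p = 0.028). The call of LTV1 was lost under 4 of 14 alternatives (adjusted p = 0.056 to 0.11): a fit of the 2 groups alone, and without SUP35 stage 1 replicate 1, SUP35 stage 1 replicate 2 or sup35-218 replicate 2. The other 9 called factors were the helicases DRS1 (log2FC 0.69) and MAK5 (0.53), the H/ACA protein GAR1 (0.60), the small subunit factor KRR1 (0.57), and the large subunit factors ERB1 (0.69), RPF2 (0.66), MRT4 (0.66), RLP7 (0.65) and SSF1 (0.64). RPF1 (log2FC 0.50, adjusted p = 0.02) and NOC3 (log2FC 0.46, adjusted p = 0.033) passed the p but not the cutoff. Of these 9, alternatives were run gene by gene for GAR1, MAK5 and MRT4. GAR1 lost its call under 5 of 14 (adjusted p = 0.064 to 0.14), namely in a fit of the 2 groups alone and without SUP35 stage 1 replicate 1 or 2 or sup35-218 replicate 1 or 2, MAK5 fell under the cutoff in a fit of the 2 groups alone (log2FC 0.50) and without SUP35 stage 1 replicate 1 (0.38), and MRT4 kept its call in all 14.

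At the low end of that comparison, RRP5 (log2FC -0.25 ± 0.21), CBF5 (-0.01 ± 0.27) and DIP2 (-0.01), a small subunit processome protein, were the 3 with negative values, and none was called. RRP5 had 133, 205 and 268 CPM and CBF5 728, 946 and 1629 CPM in SUP35 stage 1 cultures, a range that enclosed all 3 mutant values in each. How many factors were called hung on single cultures. It was 5 without SUP35 stage 1 replicate 1 (10.6% of the factors, against 13.2% of all genes) and 7 without SUP35 stage 1 replicate 2 (14.9% against 13.7%), so that in both fits the share of the factors was near that of all genes. It was 25 without SUP35 stage 1 replicate 3 (53.2% against 15.5%) and 22 without sup35-218 replicate 3 (46.8% against 16.3%). The median log2FC was 0.18 without SUP35 stage 1 replicate 1 and 0.57 without replicate 3. In the same comparison 17 of 58 other small subunit factors rose and 3 fell (median log2FC 0.33), 14 of 61 other large subunit factors rose and 3 fell (0.35), and 22 of 137 ribosomal protein genes rose and 0 fell (0.25). NOP3 (YDR432W) was among those 14. Of 16 RNA polymerase I genes 1 rose and 1 fell, of 6 MATa markers 0 rose and 5 fell, of 4 MATalpha markers 0 rose and 2 fell, and of 30 stress-induced genes 7 rose and 1 fell. Their part in the factors' values was not tested.

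**Figure D5:**
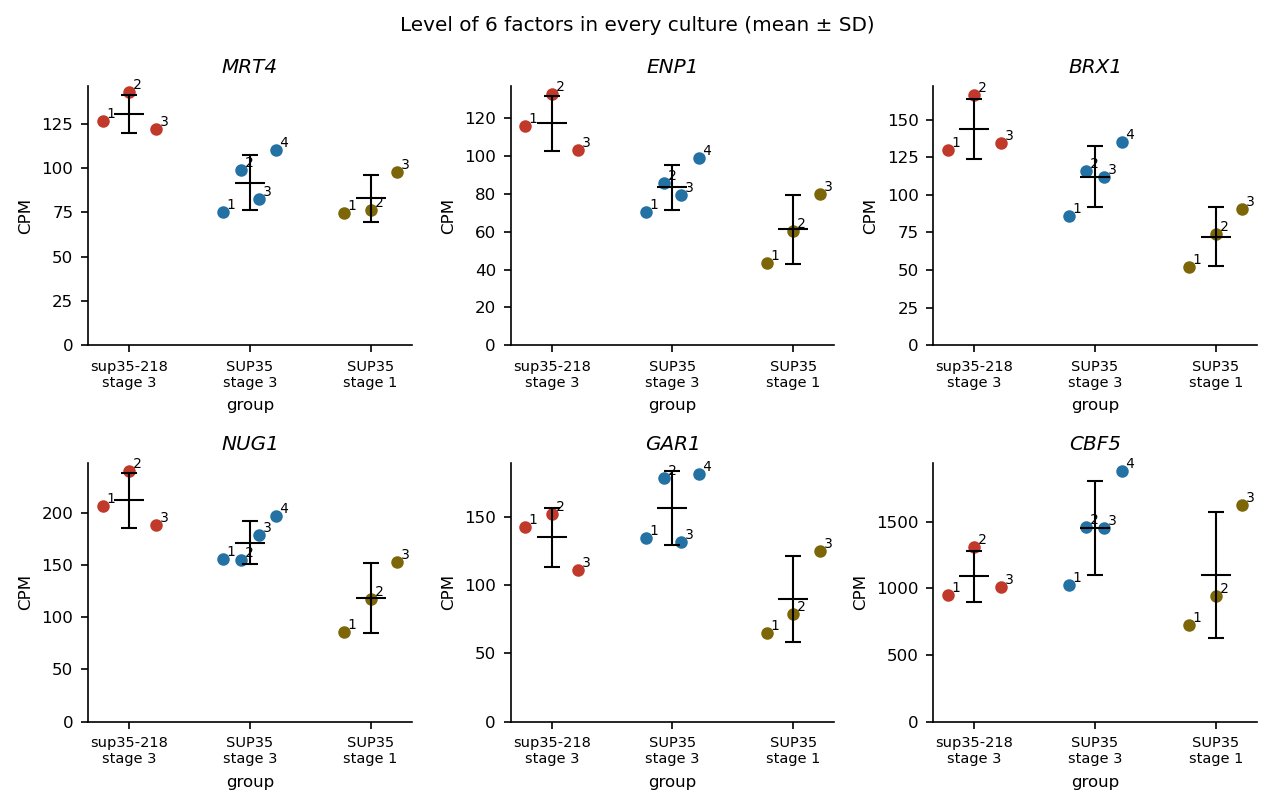
CPM of MRT4, ENP1, BRX1, NUG1, GAR1 and CBF5 in every culture, numbered by replicate, with the group mean and SD in black. MRT4 and ENP1 lie above both wild-type groups in all 3 sup35-218 cultures, and within SUP35 stage 1 replicate 1 is the lowest and replicate 3 the highest in all 6 genes.

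SUP35 stage 3 against SUP35 stage 1 compares the same wild-type allele after and before the shuffling. It called 4 of the 47 factors higher (8.51%) and 0 lower, while 7.21% of all genes were called higher and 6.63% lower, so by this rule the share called higher was near that of all genes. At an unadjusted p under 0.05, 14 of the 47 were higher and 0 lower, against 19.3% and 18.9% of all genes. DESeq2 called 6 of the 47 higher and 0 lower, against 7.35% and 6.62% of all genes. By both of these the share of the factors was above that of all genes, but the factors moved together between cultures and are not separate observations. The median log2FC was 0.31, against -0.00 over all genes, and 44 of 47 were positive, with SOF1 (-0.08), NOG2 (-0.04) and NOG1 (-0.02) below 0. With no cutoff 4 were called higher (12.7% of all genes), and with a cutoff of 1 or glmTreat 0 (0.734% and 0.700%). The groups were separate and higher at stage 3 in 2 factors, GAR1 and NUG1, and in 15.5% of all genes. The mutant and SUP35 stage 3 were set against the same 3 stage 1 cultures, so these values are not independent of the 14 factors above.

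GAR1 (YHR089C), a core protein of the H/ACA snoRNPs that binds Cbf5, had the largest difference, at 135, 179, 132 and 181 CPM in SUP35 stage 3 cultures against 65.0, 78.9 and 125 CPM in SUP35 stage 1 cultures (log2FC 0.81 ± 0.20, adjusted p = 0.01). In sup35-218 cultures it stood at 143, 152 and 111 CPM. LTV1 had 111, 129, 143 and 177 CPM in SUP35 stage 3 cultures against the stage 1 values above (log2FC 0.72 ± 0.24, adjusted p = 0.04). BRX1 had 85.9, 116, 112 and 135 CPM in SUP35 stage 3 cultures (log2FC 0.64 ± 0.18, adjusted p = 0.021), overlapping stage 1 through 1 culture of each group. NUG1 had 156, 154, 179 and 197 CPM in SUP35 stage 3 cultures (log2FC 0.53 ± 0.16, adjusted p = 0.029). Each of the 4 calls was lost under some of the 15 alternatives. GAR1 lost it without SUP35 stage 1 replicate 2 (adjusted p = 0.058). BRX1 lost it under 4 (adjusted p = 0.050 to 0.092), without SUP35 stage 1 replicate 1 or 2 or SUP35 stage 3 replicate 2 or 4. NUG1 lost it under 5 (adjusted p = 0.059 to 0.13), with the replicate block (log2FC 0.48) and without SUP35 stage 1 replicate 1 or 2 or SUP35 stage 3 replicate 3 or 4. LTV1 lost it under 7 (adjusted p = 0.053 to 0.16), with the replicate block, in a fit of the 2 groups alone, and without SUP35 stage 1 replicate 1 or 2 or SUP35 stage 3 replicate 2, 3 or 4. The neighbour of GAR1, RPF1, which faces it across 298 bases on chromosome VIII, was not called (log2FC 0.17). The number of factors called was 1 without SUP35 stage 1 replicate 1 (2.13%, against 6.2% of all genes), 0 without SUP35 stage 1 replicate 2 (against 5.62%) and 23 without SUP35 stage 1 replicate 3 (48.9% against 8.53%). It was 9 without SUP35 stage 3 replicate 1 (19.1% against 8.31%), 2 without SUP35 stage 3 replicate 2 (4.26% against 6.63%) and 1 without SUP35 stage 3 replicate 4 (2.13% against 6.85%). Of 137 ribosomal protein genes 11 rose and 0 fell (median log2FC 0.24), of 58 other small subunit factors 4 rose and 1 fell, and of 61 other large subunit factors 3 rose and 2 fell. All 6 MATa markers fell, 1 of 4 MATalpha markers rose, and of 30 stress-induced genes 4 rose and 3 fell. Their part was not tested.

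The regulators of these genes were measured as well. Of 24 listed, 2 rose and 3 fell in sup35-218 against SUP35 at stage 3, while 10.7% of all genes were called higher and 12.6% lower. STB3, a repressor that binds RRPE, rose (log2FC 0.63 ± 0.11), as did the stress activator MSN4 (0.80), and MRS6 (-0.61), which binds the activator Sfp1, TOR1 (-0.59), a kinase that promotes ribosome synthesis, and RAS2 (-0.55) fell. Against SUP35 stage 1, the activator SFP1 (0.53) and BCY1 (0.60) and TPK2 (0.61), subunits of protein kinase A, rose and MRS6 (-0.91), TOR1 (-0.90) and TOR2 (-0.57) fell in sup35-218, and between the wild-type groups MSN4 fell at stage 3 (-0.62) while 0 rose. Of all genes, 14.7% were called higher and 16.5% lower against SUP35 stage 1, and 7.21% and 6.63% between the wild-type groups. In no comparison was the share of regulators called above that of all genes, in either direction. The values of the regulators are transcript levels and say nothing of the activity of the proteins.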

How the data were processed

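Total RNA was made into libraries with a strand-specific kit and sequenced as read pairs. According to the labels and the methods, the authors used Trimmomatic, HISAT2 and featureCounts with the R64 genome, and versions are not given in the sources used here. The deposited values are raw counts per gene for 10 cultures, and 0 columns were left unused. All 47 factors had the same start and end in the reference annotation, as had 5899 of 5924 matched genes.

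Genes were filtered with filterByExpr (minimum count 10), scaled with TMM and fitted with edgeR 4.0.16 (R 4.3.3) on all 10 cultures with 1 mean per group. The SE of a log2FC was worked back from edgeR's quasi-likelihood test, as the size of the log2FC divided by the square root of the F statistic. CPM of the factors use TMM-scaled totals. Shares, and the CPM of SUP35, LEU2, URA3 and the mating type markers, use plain totals. The floor of 3 counts in a culture corresponds to 6.17e-05% to 9.86e-05% of its total. Alternatives were DESeq2 1.42.0, other scalings and filters, a replicate block, fits of 2 groups, other cutoffs and leaving out each culture. The code was tested on simulated data. Promoter windows were read from the R64 genome.

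The factors and gene lists were chosen with earlier results of these data known. The list of other large subunit factors also held the H/ACA assembly factor NAF1, NOP3 (YDR432W), SHQ1, RSA1 and NPA3. For NOP3, SHQ1, RSA1 and NPA3 the part in the large subunit pathway was not checked. Values in every culture are given for NOP1, NOP56, CBF5 and DBP2, for the highest and lowest member of each role at stage 3, and, where called, for the 5 members with the highest and the 5 with the lowest log2FC of each comparison. None of the lowest was called. EBP2 was added after its values were seen.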

Additional observations from a re-analysis of the deposited data

Results flagged for a closer look

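In the group of 4 SUP35 stage 3 cultures, 65 sets of values were screened for a single culture far from the rest (the 47 factors, 5 gene list sums and 13 marker genes), a screen that flags about 1 in 20 sets by chance. It flagged 1, and none of the 47 factors. SUP35 itself stood at 805.1 CPM in replicate 1, against 515 to 549 CPM in the other 3 cultures. The same culture had the lowest level of 36 of the 47 factors.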

How the results depend on the processing

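The number of factors called lower was 0 in all 3 comparisons under every alternative tried, and no named factor changed direction while called. For sup35-218 against SUP35 at stage 3, the 1 factor called became 2 with upper-quartile scaling, with TMM computed without ribosome genes, with the replicate block and with no log2FC cutoff, 0 with a cutoff of 1 or glmTreat, and 0 to 3 when single cultures were left out. Against SUP35 stage 1, the 14 became 9 in a fit of the 2 groups alone, 0 with a cutoff of 1, 2 with glmTreat, and 5 to 25 when single cultures were left out. For SUP35 stage 3 against stage 1, the 4 became 7 with upper-quartile scaling, 2 with the replicate block, 0 with a cutoff of 1 or glmTreat, and 0 to 23 when single cultures were left out. The cause was not tested. The median log2FC of the factors stayed positive in every alternative, at 0.01 to 0.23, 0.18 to 0.57 and 0.14 to 0.56 in the 3 comparisons. With only the 250 bases before the start codon, PAC was in 97.9% of the factors and RRPE in 85.1%.

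The labels do not say whether replicate numbers pair the cultures. Deviations of same-numbered cultures from their group means had mean correlations of 0.10, -0.10 and 0.08 across genes in the 3 comparisons. Other pairs had -0.03, 0.05 and -0.02. Single same-numbered pairs ran from -0.24 to 0.41 and other pairs from -0.43 to 0.34. With so few cultures in a group, these means cannot exclude pairing. The replicate block gave 2, 17 and 2 factors called higher. The lowest count of any factor in a culture was 41. Over all genes, the spread between replicates was 6.72 to 23.7 times the chi-square expected from counting error per degree of freedom. How far each limits the precision was not tested for the factors alone.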
